A study of Mus musculus with 6 samples.

Results

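Cells at day 7 of an ex vivo culture of mouse bone marrow with Flt3 ligand (Flt3L) were compared with cells at day 4 of the same kind of culture, across all genes of an RNA-seq table. The comparison took the libraries of these days by their labels, 4 of the 6 libraries of the series with 2 a day, and it covered the 21761 genes of the table, of which 19279 had enough signal to be tested. All libraries came from male C57BL/6J bone marrow. The cells of both days had grown in RPMI medium with serum and a supernatant of a transfected SP2/0 myeloma line that secretes Flt3L, and per the labels every live cell of the culture was taken on each day, with no selection by a surface marker described. The day 4 libraries I and II were labelled common myeloid progenitors and the day 7 libraries III and IV bone marrow derived dendritic cells. The remaining libraries, II and III of fresh marrow at day 0, entered the fit through its estimate of the spread between replicates and through the filter on low values, which took genes with at least 1 RPKM in at least 2 of the 6 libraries (12661 genes pass it on the 4 libraries compared). Whether replicates are separate animals, cultures or preparations is not stated, and p-values therefore reflect the spread between these libraries alone, which may be technical.

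Flt3L is the cytokine that carries marrow progenitors toward dendritic cells (DCs), which take up antigen and present it to T cells on MHC class II. Conventional DCs are known for Zbtb46 and high MHC class II, and plasmacytoid DCs for Siglech, Tcf4 and interferon. A marrow culture also starts with many neutrophil precursors, which fill their granules in a set order before they mature and die, and with monocytes that can become macrophages, cells built for engulfing debris and digesting it in lysosomes. The comparison asks how gene expression differed between the middle and the last stage of the culture. In such bulk samples, fewer cells of a type and less RNA per cell cannot be told apart.

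Depth rose with the day. The day 4 libraries held 1365635 and 3852628 reads in genes and the day 7 libraries 16149088 and 10951745. Values are in RPKM, reads scaled to a gene's exon length and to the reads in genes of the library. The limit that a count of 0 allows, here 3 reads of a 1 kb gene and called the floor below, was 2.20 RPKM in day 4 library I, 0.779 RPKM in II, 0.186 RPKM in day 7 library III and 0.274 RPKM in IV. Although they were deeper, the day 7 libraries had reads in fewer genes, 13658 and 12278 against 20629 and 19777 at day 4, and this order held when every library was thinned at random to 1365635 reads (11959 and 11149 against 20629 and 17491). Receptor genes of sensory neurons (odorant, vomeronasal and trace amine) took 0.763% and 0.149% of reads at day 4 and 0.00391% and 0.00421% at day 7. Replicates correlated at 0.899 across genes at day 4 and at 0.976 at day 7 (Pearson, log2 of RPKM plus 1). The day 0 libraries II and III, whose spread enters the fit, held 322837 and 157797 reads in genes and correlated at 0.562. A gene can therefore miss the call through its spread at day 0. Among the 7216 genes whose mean over the 4 libraries reached 5 RPKM, the replicates lay more than 2-fold apart in 15.7% at day 4 and in 6.37% at day 7.

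The days differed in many genes, in both directions. A gene was called when limma gave an adjusted p (Benjamini-Hochberg over the genes tested) under 0.05 on log2(RPKM + 1), a scale on which the change of low genes is understated. Of 19279 genes tested, 1127 were higher at day 7 (5.85%) and 1301 lower (6.75%), so that 46.4% of the calls were higher. Most changes were large, with 877 of the higher and 1039 of the lower genes past 4-fold. In every called gene both libraries of one day were above both of the other. An exact permutation of 2 libraries against 2 cannot go below p = 0.333, so the calls rest on the spread that limma pools over genes. When day 4 library I or II was left out, 0 genes passed (4062 and 7160 at unadjusted p under 0.05 by limma), while leaving out day 7 library III gave 374 higher and 447 lower and leaving out IV gave 288 and 334. A fit of the 4 libraries without day 0 called 1963 genes higher and 1958 lower, and the same fit after thinning every library to 1365635 reads called 1179 and 982.

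The calls also depended on the level of a gene. Of the 7216 genes that reached a mean of 5 RPKM, 1107 were higher (15.3%) and 1011 lower (14.0%). Below that mean 20 were higher and 290 lower. Of the 1026 tested receptor genes of sensory neurons 43 were called lower, a smaller share than the 6.75% of all genes tested, and 0 higher. In 779 of the 1026, however, both day 7 libraries were below both of day 4, and in 1 above both. Their median log2 fold change was -1.18, against -0.81 for all genes tested. Of the 1301 lower genes 202 had no read in either day 7 library. Over all genes the log2 fold change, day 7 minus day 4, had a median of -0.81, which was 0.04 after quantile normalization and -0.72 after scaling to median ratios. For the genes that reached a mean of 5 RPKM it was 0.15. Day 0 admitted many of the low genes, and with the filter on the 4 libraries compared 1389 of 12661 genes were higher and 1827 lower. Each list below is therefore read beside -0.81 and beside the shares called of all genes. For lists of abundant genes the closer reference is that of genes that reached a mean of 5 RPKM. These had a median of 0.15, with 15.3% called higher and 14.0% lower. Genes on 3 neutrophil lists took over 10% of RPKM at day 4 and under 1% at day 7 (given below, Lyz2 left aside), and the part of this shift in the RPKM of other genes was not tested.

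**Figure D1:**
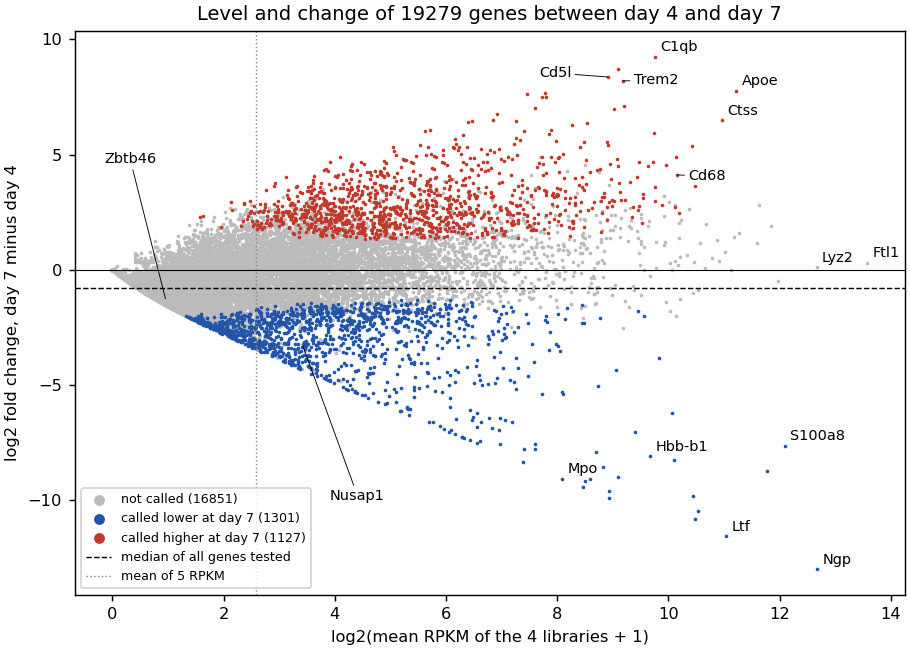
Log2 fold change (day 7 minus day 4, vertical) against log2 of the mean RPKM of the 4 libraries plus 1 (horizontal) for the 19279 genes tested, in red the 1127 called higher, in blue the 1301 called lower and in grey the others. The abundant genes at the lower right (Ngp, Ltf, S100a8) are of neutrophils and those at the upper right (C1qb, Apoe, Ctss) of macrophages, and the calls to the left of a mean of 5 RPKM are nearly all lower.

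The labels of the cells were set against marker genes. At day 7 several genes that define DCs were low, with Zbtb46 near the floor in both libraries and Xcr1 and Clec9a at 0 in library IV. Zbtb46, the transcription factor of conventional DCs, had 3.29 and 0.402 RPKM on day 4 against 0.0288 and 0.0283 RPKM on day 7, which was 5 reads in all at day 7. Flt3, the receptor for the cytokine in the medium, had 5.61 and 1.70 RPKM on day 4 against 1.22 and 1.97 RPKM on day 7. Zbtb46 was lower in both day 7 libraries and Flt3 overlapped between the days, and neither passed the test (limma adjusted p = 0.268 and 0.43). Xcr1, the chemokine receptor of type 1 conventional DCs, had 3.78 and 1.75 RPKM on day 4 against 0.528 and 0 RPKM on day 7. Clec9a, by which these cells sense dead cells, had 2.37 and 0.841 RPKM on day 4 against 0.703 and 0 RPKM on day 7, so that day 7 library IV had no read of either. Siglech, a lectin of plasmacytoid DCs, had 10.98 and 2.84 RPKM on day 4 against 5.44 and 8.22 RPKM on day 7, with the days overlapping. Itgax, the integrin CD11c by which DCs are often gated and which macrophages also carry, had 6.40 and 2.03 RPKM on day 4 against 24.7 and 25.9 RPKM on day 7 (limma adjusted p = 0.0805). In contrast, 6 of the 17 DC markers rose, namely Irf8, Bst2, Cd74, H2-Aa, H2-Ab1 and H2-Eb1, genes that macrophages can carry as well, and 0 fell. Of the 4 macrophage markers 3 rose: C1qa (from 2.71 and 0.960 RPKM to 139 and 169.6 RPKM), Adgre1, which encodes F4/80 (from 6.58 and 4.31 RPKM to 304 and 329 RPKM), and Csf1r, the M-CSF receptor (from 11.7 and 21.4 RPKM to 219 and 242 RPKM). The fourth, Mertk, had 6.68 and 1.62 RPKM on day 4 against 17.6 and 14.8 RPKM on day 7. The libraries labelled DCs at day 7 thus had MHC class II and Itgax but little of Zbtb46, Xcr1 or Clec9a. Of the DC markers not yet named, Batf3 and Tcf4 were higher and Irf4 and Ccr9 lower in both day 7 libraries. Cd209a overlapped between the days, and none of these was called (values below).

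The progenitor label of day 4 stood beside strong neutrophil signal. Kit, the stem cell factor receptor, had 8.34 and 18.1 RPKM at day 4, Cd34 11.6 and 6.13 RPKM and Myb, a progenitor transcription factor, 23.04 and 20.7 RPKM. Mpo, the myeloperoxidase of promyelocytes, had 447 and 641 RPKM. The neutrophil markers S100a8, Ngp and Ltf, however, summed to 29381 and 22579 RPKM, which was 7.17% and 5.62% of all RPKM in those libraries. At day 7 they summed to 42.9 and 42.7 RPKM.

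**Figure D2:**
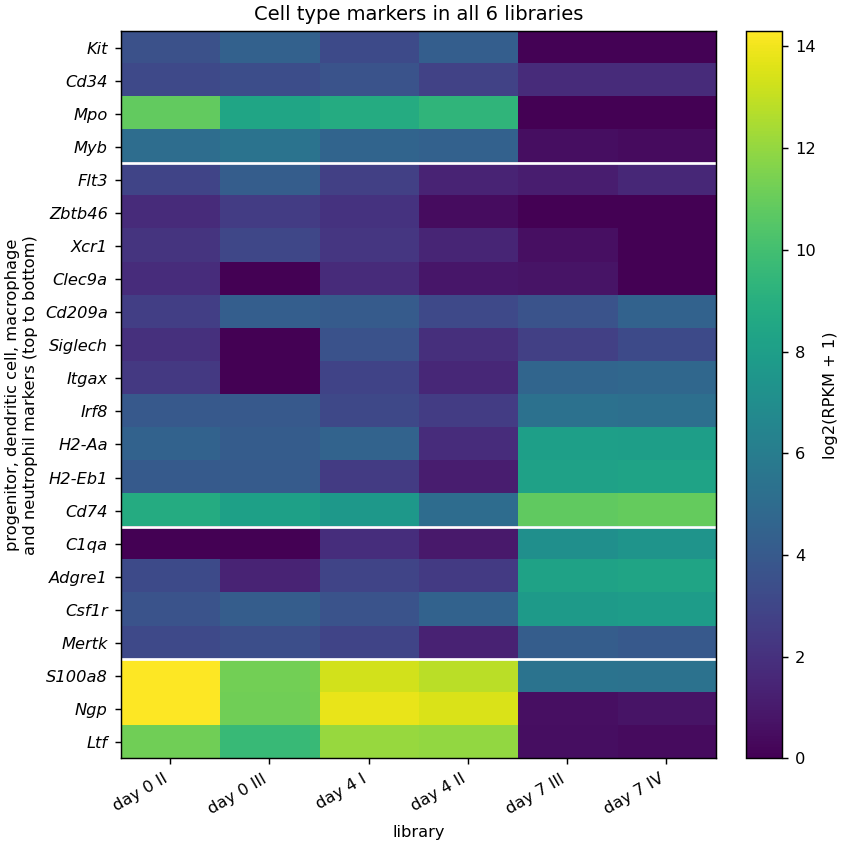
Log2 of RPKM plus 1 of 22 marker genes (rows) in the 6 libraries (columns), with white lines between progenitor, dendritic cell, macrophage and neutrophil markers. The neutrophil rows are bright at days 0 and 4 and dimmer at day 7, most so Ngp and Ltf. Of the macrophage rows C1qa, Adgre1 and Csf1r turn bright at day 7, while Mertk stays dimmer there than S100a8. Zbtb46, Xcr1 and Clec9a stay dark in both day 7 libraries.

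Macrophage genes led the rises. Values below are given for day 4 libraries I and II and then for day 7 libraries III and IV. The largest log2 fold change of genes that reached a mean of 5 RPKM was that of C1qb, a chain of the complement starter C1q, which rose from 5.52 and 0.245 RPKM to 1634 and 1813 RPKM (9.24 ± 0.72, ± SE, limma adjusted p = 0.000325). With 9 reads of C1qb at day 4 against 49058 at day 7, the ratio of pooled reads scaled to depth was 1049.6 (exact 95% interval 553 to 2295), an interval of counting error only. C1qc, a second chain, rose from 3.47 and 0.493 RPKM to 1031 and 1149 RPKM, and C1qa from 2.71 and 0.960 RPKM to 139 and 169.6 RPKM. Trem2, a lipid-sensing receptor, rose from 2.76 and 3.13 RPKM to 1123 and 1188 RPKM, with both day 4 libraries near 3 RPKM. Cd5l, a protein that macrophages secrete, rose from 2.52 and 1.40 RPKM to 963 and 952 RPKM. Apoe, the lipid carrier, went from 20.7 and 21.05 RPKM to 4729.6 and 4795 RPKM and was 1 of the 15 most abundant genes at day 7 (7.77 ± 0.50, limma adjusted p = 0.0002). In all 6 genes the day 7 libraries lay within a factor of 1.5 of each other, while the day 4 libraries, with few reads, lay over 10-fold apart in C1qb and over 5-fold apart in C1qc.

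The other largest rises held further macrophage genes and a few of wider use. Fabp4, a fatty acid carrier, rose from 1.14 and 1.21 RPKM to 469 and 408 RPKM, and Mmp12, the macrophage elastase, from 2.12 and 0.689 RPKM to 457 and 379.6 RPKM. Ms4a7, a membrane protein of macrophages, rose from 2.70 and 0.639 RPKM to 429 and 454 RPKM. Mfge8, which bridges dying cells to the phagocyte that eats them, rose from 1.20 and 1.19 RPKM to 219 and 260.0 RPKM. Ctss, cathepsin S, which trims the invariant chain off MHC class II in antigen presenting cells, rose from 58.8 and 31.0 RPKM to 3842 and 4057 RPKM and was the second most abundant of the 15. The set was completed by Tmem37 (7.63), the LIM domain gene Crip1 (7.11), Ptms (7.02), Wfdc17 (6.98) and Ckb, a creatine kinase (6.52), with log2 fold changes in parentheses.

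**Figure D3:**
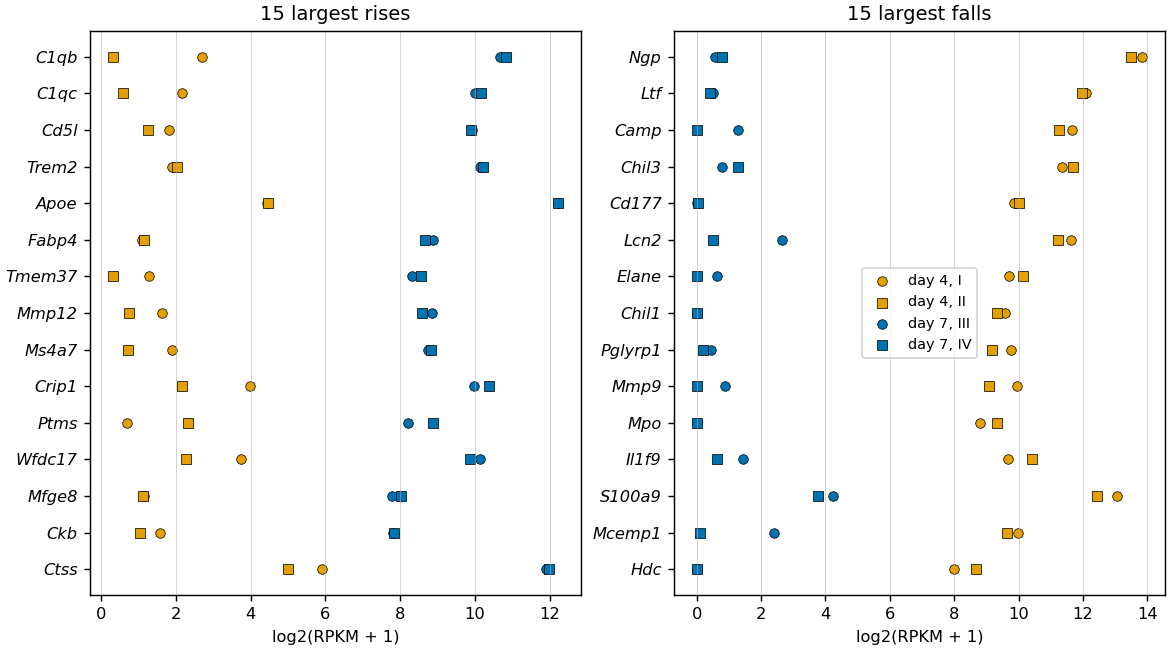
Log2 of RPKM plus 1 (horizontal) in each library of day 4 (orange) and day 7 (blue) for the 15 genes with the largest rise (left) and the 15 with the largest fall (right), circles for libraries I and III and squares for II and IV. In each of the 30 genes the days lie apart, which the rule for choosing them required. Mpo, Chil1 and Hdc sit at 0 in both day 7 libraries.

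By lists, genes of tissue macrophages, of macrophages that handle lipid and of macrophage regulators were higher. Of 26 tested genes of tissue macrophages 15 rose and 0 fell, with a median log2 fold change of 3.25 against -0.81 for all genes. Both day 7 libraries were above both of day 4 in 18 of the 26 and below both in 4. Members with no read numbered 0 and 1 in the day 4 libraries and 3 and 4 in those of day 7. The list's share of RPKM was 0.0429% and 0.0845% on day 4 against 1.09% and 1.096% on day 7. Ms4a7, Cd5l and the C1q chains led the list. Pf4, a platelet and macrophage chemokine, stood at 22.4 and 279 RPKM on day 4 against 199 and 153 RPKM on day 7, its day 4 libraries more than 10-fold apart. Fcgr1, the high-affinity IgG receptor CD64, rose from 0.761 and 0.630 RPKM to 16.9 and 13.004 RPKM. Of 18 genes of lipid-associated macrophages 10 rose and 0 fell, with a median of 3.41. Besides Trem2, Apoe and Fabp4, these held Lpl, lipoprotein lipase (from 7.66 and 7.95 RPKM to 803 and 664 RPKM), Cd36, a scavenger receptor for lipid (from 6.99 and 6.45 RPKM to 475 and 437 RPKM), Fabp5 (from 24.4 and 29.2 RPKM to 1804 and 1553 RPKM) and Cd68, a glycoprotein of phagocyte lysosomes (from 171 and 88.4 RPKM to 2009 and 2306 RPKM). Plin2, which coats lipid droplets, was already abundant at day 4 and slightly higher in both day 7 libraries, with 645 and 691 RPKM on day 4 against 772 and 769 RPKM on day 7. Tyrobp, the signalling partner of Trem2, was high on both days at 1461 and 1033 RPKM on day 4 against 3668 and 3751 RPKM on day 7.

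Of 22 transcription factors of macrophages 10 rose and 1 fell (median 2.19), or 5 and 0 after quantile normalization. Cebpb, active in macrophages and granulocytes, rose from 1.46 and 3.11 RPKM to 94.5 and 144 RPKM (5.21 ± 0.58, limma adjusted p = 0.00134), Klf4 from 1.68 and 1.62 RPKM to 82.9 and 61.2 RPKM and Atf3, a stress factor, from 8.98 and 46.3 RPKM to 218 and 169 RPKM. Irf5 and Irf8, interferon regulatory factors of myeloid cells, rose by 2.91 and 2.45 on the log2 scale. Spi1, which encodes PU.1, the factor shared by all myeloid cells, stood at 218 and 285 RPKM on day 4 against 245 and 262 RPKM on day 7, so that its days overlapped. A PU.1 type site, GAGGAAGT on either strand, was found within 250 bases before the start site of 3 of 19 tissue macrophage genes with a RefSeq promoter, of 1 of 13 lipid-associated macrophage genes and of 418 of 15017 tested genes (2.78%).

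Receptors for dead cells and modified lipid moved both ways. Of 24 genes 11 rose and 3 fell (median 1.87), and 7 of them are also on the tissue macrophage list. Cxcl16, a scavenger receptor for oxidized lipid and a chemokine, rose from 4.12 and 3.52 RPKM to 125 and 114 RPKM. Those that fell included 2 immune receptors of the CD300 family, Cd300lf (from 153 and 102 RPKM to 3.94 and 2.14 RPKM) and Cd300lb (from 247 and 174 RPKM to 58.9 and 54.1 RPKM). In the complement list 4 of 18 rose and 4 fell (median -0.58). C3ar1, the receptor for C3a, rose from 5.79 and 3.68 RPKM to 316 and 284 RPKM, whereas C3 itself fell from 286 and 431 RPKM to 23.1 and 18.8 RPKM and C5ar1, the C5a receptor, from 549.9 and 492 RPKM to 195 and 162 RPKM. The 4 that rose were thus the C1q chains and C3ar1, and C3 and C5ar1 were among the 4 that fell. The other 10 were not called.

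Lysosomal genes were higher and sterol synthesis genes in part lower. Of 37 lysosomal hydrolases and cathepsins 17 rose and 0 fell (median 1.58), and the list's share of RPKM was 0.900% and 1.28% on day 4 against 3.33% and 3.35% on day 7. Lgmn, the asparagine endopeptidase legumain, rose from 10.7 and 5.55 RPKM to 229 and 256 RPKM. Lipa, the acid lipase that frees cholesterol from its esters, rose from 68.6 and 100.2 RPKM to 838 and 823 RPKM, Ctsz from 182 and 258 RPKM to 1011 and 1145 RPKM, and Psap, which makes the saposins, from 336 and 386 RPKM to 1991 and 1937 RPKM. Gusb, beta-glucuronidase, rose from 9.40 and 18.9 RPKM to 146 and 161 RPKM. Ctsd, already the leading cathepsin at day 4, stood at 1561 and 2363 RPKM on day 4 against 3967 and 4518 RPKM on day 7 and Ctsb at 312 and 592 RPKM on day 4 against 1903 and 1983 RPKM on day 7 (limma adjusted p = 0.289 and 0.0528). After quantile normalization 4 of the list were called higher and 0 lower. The E box of lysosomal promoters, TCACGTGA, a palindrome, stood within 250 bases before the start site of 3 of the 31 list members with a RefSeq promoter and of 193 of 15017 tested genes (1.29%).

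Among 26 membrane proteins and pump subunits of the lysosome 6 rose and 0 fell (median 1.11). The fit of the 4 libraries without day 0 called 14 higher and 1 lower, and 9 and 0 after thinning. Atp6v0d2, a proton pump subunit known from osteoclasts and macrophages, rose from 3.51 and 1.56 RPKM to 131 and 138 RPKM. Npc2, which hands cholesterol out of the lysosome, rose from 40.6 and 55.8 RPKM to 613 and 632 RPKM. The general pump subunits Atp6v0c and Atp6v0b were higher in both day 7 libraries without passing the test, at 504 and 853 RPKM on day 4 against 2509 and 2642 RPKM on day 7 and at 562 and 746 RPKM on day 4 against 1593 and 1779 RPKM on day 7.

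Cholesterol genes divided by role. In transport and lipid handling 11 of 24 genes rose and 0 fell (median 1.33), among them Apoc2, an apolipoprotein that activates lipoprotein lipase (from 6.72 and 2.38 RPKM to 171 and 212 RPKM). In synthesis 1 of 20 rose and 4 fell. The median was -0.94, against -0.81 for all genes and 0.15 for those that reached a mean of 5 RPKM. Both day 7 libraries were below both of day 4 in 14 of the 20 and above both in 4. Hmgcs1, which makes HMG-CoA, fell from 16.4 and 18.2 RPKM to 2.62 and 3.29 RPKM, and Idi1, of isoprenoid synthesis, from 36.5 and 35.9 RPKM to 9.24 and 4.94 RPKM. Ebp, a sterol isomerase, went the other way, from 13.04 and 20.4 RPKM to 59.3 and 64.8 RPKM. Without day 0 in the fit 7 synthesis genes were lower, and 2 after thinning as well, while quantile normalization gave 0.

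Iron storage genes were among the most abundant on both days. Ftl1 and Fth1, the ferritin chains, stood at 11279.6 and 10370.4 RPKM on day 4 against 12033 and 14996 RPKM on day 7 and at 8282 and 7941 RPKM on day 4 against 10531 and 11764 RPKM on day 7. Hmox1, the heme oxygenase, was at 374 and 1518 RPKM on day 4 against 879.6 and 722 RPKM on day 7, its day 4 libraries lying on either side of those of day 7. Blvra, which reduces the biliverdin that heme oxygenase leaves, rose from 6.79 and 6.23 RPKM to 81.0 and 84.7 RPKM, Blvrb from 88.9 and 106 RPKM to 406 and 435 RPKM and Slc11a1, an iron transporter of the phagosome, from 164 and 153 RPKM to 433 and 447 RPKM. In all 4 of 18 iron and heme genes rose and 0 fell (median 0.38), or 1 and 1 after quantile normalization.

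The MHC class II pathway, through which DCs and macrophages present antigen, was higher at day 7. Of 13 genes 8 rose and 0 fell (median 3.48), and the list's share of RPKM was 0.0966% and 0.0253% on day 4 against 1.43% and 1.45% on day 7. Of the alpha and beta chains, H2-Eb1 rose from 4.49 and 1.19 RPKM to 290.2 and 314 RPKM (6.45 ± 0.47, limma adjusted p = 0.000297), H2-Aa from 22.03 and 2.50 RPKM to 268 and 258 RPKM and H2-Ab1 from 52.7 and 11.1 RPKM to 666 and 730.3 RPKM. Cd74, the invariant chain that guards the groove, rose from 198 and 32.1 RPKM to 1814 and 1932 RPKM. In each of these 4 genes day 4 library I was above day 4 library II by 3-fold or more and both were under the day 7 libraries. B cells also carry MHC class II, and the B lineage list summed to 162 RPKM in day 4 library I, 97.1 RPKM in II, 121 RPKM in day 7 library III and 131 RPKM in IV. The part of B cells in the day 4 values was not tested. Ifi30, a reductase that unfolds antigen for loading, rose from 6.72 and 4.76 RPKM to 289 and 298 RPKM. Without day 0 in the fit 8 of the list were called higher, and 4 after thinning as well, while quantile normalization gave 4.

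Because these genes moved together, the 250 bases before their RefSeq start sites (GRCm38.p6) were searched on both strands for the Y box of MHC class II promoters, CTGATTGG. It was found in 4 of the 10 list members with an entry and in 818 of the 15017 tested genes with one (5.45%). The promoters of H2-Aa (chr17:34287824-34288073, minus strand), H2-Eb1 (chr17:34305617-34305866, plus strand) and H2-DMb1 (chr17:34152941-34153190, plus strand), a subunit of the peptide editor H2-DM that rose from 14.8 and 4.07 RPKM to 53.97 and 61.6 RPKM, are shown as examples with and without a match, chosen after the sequences had been seen, with the match in capitals.
H2-Aa: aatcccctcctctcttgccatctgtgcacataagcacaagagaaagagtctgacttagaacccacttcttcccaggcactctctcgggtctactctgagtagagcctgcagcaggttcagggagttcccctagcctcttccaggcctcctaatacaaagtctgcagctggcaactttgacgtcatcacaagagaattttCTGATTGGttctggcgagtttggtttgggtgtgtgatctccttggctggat
H2-Eb1: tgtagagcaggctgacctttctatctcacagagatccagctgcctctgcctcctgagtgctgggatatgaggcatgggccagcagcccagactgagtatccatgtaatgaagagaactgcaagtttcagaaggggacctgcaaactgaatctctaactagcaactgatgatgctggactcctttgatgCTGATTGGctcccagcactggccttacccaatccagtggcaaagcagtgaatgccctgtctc
H2-DMb1: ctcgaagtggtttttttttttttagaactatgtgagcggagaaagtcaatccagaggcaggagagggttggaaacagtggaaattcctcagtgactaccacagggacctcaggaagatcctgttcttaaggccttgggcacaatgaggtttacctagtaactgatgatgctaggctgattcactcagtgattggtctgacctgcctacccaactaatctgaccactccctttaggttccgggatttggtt
The match began 51 bases before the start site in H2-Aa and 62 bases before it in H2-Eb1. Only exact matches were counted, and H2-DMb1 holds gtgattgg, which differs from the letters searched in its first base. A match describes the sequence alone, and binding was not measured here.

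MHC class I genes were also higher. Of 21 genes of class I and peptide loading 7 rose and 0 fell (median 1.03). B2m, the light chain, rose from 308 and 276 RPKM to 1955 and 1914 RPKM and H2-K1 from 106 and 123 RPKM to 496 and 505 RPKM. H2-D1 stood at 2887 and 1725 RPKM on day 4 against 2176 and 2196 RPKM on day 7, with the days overlapping. Psmb10, a subunit of the immunoproteasome, rose from 9.80 and 14.1 RPKM to 86.2 and 90.9 RPKM, and Psme1 and Psme2, its activator, by 1.93 and 1.76 on the log2 scale. After quantile normalization 1 of the list was called. H2 genes resemble each other, so their share of reads is uncertain.

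Genes of DC subsets were called in both directions. Of 30 genes of conventional DCs, 3 rose and 5 fell, with a median of -0.83 against -0.81 for all genes. Of all genes tested 5.85% were higher and 6.75% lower, and of those that reached a mean of 5 RPKM 15.3% and 14.0%. Id2, a repressor needed for DCs and active in many leukocytes, rose from 86.9 and 51.01 RPKM to 1584 and 1438 RPKM, and the others that rose were Irf8 and Clec10a. Cd24a, a surface protein of type 1 DCs that neutrophils and red cell precursors also carry, fell from 225 and 223 RPKM to 1.81 and 0.352 RPKM, and Ly75, the antigen receptor DEC-205, had 18.97 and 11.1 RPKM on day 4 against 0 and 0 RPKM on day 7, at least 696-fold lower against a floor of 3 reads over the day 7 libraries. Clec4a2, a lectin of myeloid cells, fell from 94.3 and 102 RPKM to 34.96 and 31.1 RPKM. Batf3, needed for type 1 DCs, stood at 1.80 and 0.212 RPKM on day 4 against 3.75 and 6.28 RPKM on day 7, Irf4, of type 2 DCs, at 0.607 and 0.484 RPKM on day 4 against 0.0128 and 0.360 RPKM on day 7, and Cd209a at 15.97 and 8.05 RPKM on day 4 against 11.8 and 21.5 RPKM on day 7. None of these 3 genes passed the test (limma adjusted p = 0.111, 0.602 and 0.577).

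Plasmacytoid DC genes were likewise mixed, with 5 of 22 higher and 1 lower (median -0.34). Bst2, also induced by interferon, rose from 31.5 and 7.45 RPKM to 613 and 714 RPKM, and Cox6a2, a subunit of cytochrome oxidase, from 1.11 and 0 RPKM to 13.6 and 21.5 RPKM. Lair1, a collagen receptor, rose from 8.78 and 8.84 RPKM to 57.2 and 40.8 RPKM. Tcf4, which sets the plasmacytoid fate, stood at 3.38 and 3.31 RPKM on day 4 against 8.69 and 8.02 RPKM on day 7, Irf7 at 50.9 and 7.36 RPKM on day 4 against 25.5 and 30.97 RPKM on day 7 and Ccr9, a homing receptor, at 3.36 and 1.43 RPKM on day 4 against 0.334 and 0.335 RPKM on day 7. Of 21 genes of DC maturation 1 rose and 2 fell (median -0.44). Marcks, a membrane-bound regulator of actin, rose from 12.3 and 4.37 RPKM to 76.2 and 88.01 RPKM, Icosl, a ligand for activated T cells, fell from 23.96 and 16.9 RPKM to 0.990 and 0.270 RPKM, and Cd274, which encodes PD-L1, stood at 7.25 and 5.07 RPKM on day 4 against 43.3 and 47.6 RPKM on day 7 (limma adjusted p = 0.0715).

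Receptors by which phagocytes read their surroundings were called in both directions. Of 20 Fc receptors, lectins and adaptors 5 rose and 1 fell (median 0.56). Clec7a, the glucan receptor dectin-1, rose from 43.8 and 21.2 RPKM to 377 and 367 RPKM, Clec4d rose from 100.2 and 232 RPKM to 561 and 541 RPKM, and its partner Clec4e fell from 83.6 and 89.8 RPKM to 21.7 and 13.9 RPKM. Of 20 Toll-like receptors and adaptors 2 rose and 1 fell (median 0.08), beside 15.3% higher and 14.0% lower among genes that reached a mean of 5 RPKM. Ly86 and Cd180, which together form the RP105 complex, rose from 12.5 and 6.25 RPKM to 246 and 313 RPKM and from 3.77 and 1.54 RPKM to 11.9 and 20.2 RPKM, and Tirap, an adaptor, fell from 25.7 and 10.8 RPKM to 3.52 and 2.11 RPKM. The nucleic acid sensors Tlr7 and Tlr13 stood at 12.7 and 45.6 RPKM on day 4 against 26.6 and 23.7 RPKM on day 7 and at 70.6 and 86.1 RPKM on day 4 against 83.5 and 67.3 RPKM on day 7.

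Chemokines were higher. Of 21 ligands 9 rose and 0 fell (median 2.66), and their summed RPKM was 229 and 899 on day 4 against 2642 and 2308 on day 7. Cxcl2, which draws neutrophils, rose from 9.34 and 16.6 RPKM to 497 and 319 RPKM, Ccl4, an inflammatory chemokine, from 34.3 and 215 RPKM to 731 and 629 RPKM, and Ccl9 from 16.6 and 20.6 RPKM to 203 and 202 RPKM. Ccl3 stood at 61.3 and 219.8 RPKM on day 4 against 207 and 185 RPKM on day 7, with the days overlapping. Among 16 chemokine receptors 2 rose and 2 fell (median -0.32). The atypical receptor Ccrl2 rose from 1.86 and 13.3 RPKM to 52.7 and 45.3 RPKM, while Ccr1 fell from 314 and 82.3 RPKM to 19.6 and 18.3 RPKM and Cxcr2, through which neutrophils answer Cxcl2, from 279 and 115 RPKM to 21.1 and 34.6 RPKM. Ccr2, of inflammatory monocytes, stood at 9.59 and 2.74 RPKM on day 4 against 10.2 and 5.45 RPKM on day 7.

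Of 21 cytokines 4 rose and 1 fell (median 0.71). Igf1, insulin-like growth factor, rose from 4.19 and 2.01 RPKM to 155 and 133 RPKM, Pdgfb from 1.29 and 0.196 RPKM to 37.5 and 35.8 RPKM and Tnf from 23.2 and 11.97 RPKM to 78.9 and 87.4 RPKM. In growth factor receptors 5 of 22 rose and 3 fell (median -0.16). Csf2rb and Csf2rb2, the beta chains for GM-CSF and IL-3, rose from 34.6 and 43.8 RPKM to 176 and 177 RPKM and from 8.09 and 9.10 RPKM to 131 and 137 RPKM, while Csf2ra, the alpha chain for GM-CSF, stood at 267 and 229 RPKM on day 4 against 105 and 114 RPKM on day 7. Csf3r, the G-CSF receptor of neutrophils, fell from 362 and 121 RPKM to 23.3 and 30.001 RPKM, and Il17ra from 141 and 116 RPKM to 6.16 and 3.05 RPKM. The M-CSF receptor was thus called higher, the G-CSF receptor lower, and the Flt3 receptor neither.

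Interferon-stimulated genes were called in 3 of 28 cases, all higher (median 0.58). These were Bst2, Ifi204, a DNA sensor (from 7.29 and 1.25 RPKM to 51.9 and 51.99 RPKM), and Ifi27l2a (from 41.5 and 2.06 RPKM to 152 and 159 RPKM). Isg15, a core target of interferon, stood at 42.6 and 16.1 RPKM on day 4 against 39.3 and 31.4 RPKM on day 7, and Oas1a at 39.9 and 6.46 RPKM on day 4 against 43.3 and 63.6 RPKM on day 7. In this list day 4 library I summed to 1164 RPKM and day 4 library II to 323 RPKM, a wider gap than between the day 7 libraries (2401 and 2503 RPKM). Without day 0 in the fit 4 of the list were higher and 1 lower, and 1 and 0 after thinning as well.

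Immediate early genes, which cells switch on within minutes of a stimulus, were higher. Of 19 genes 10 rose and 0 fell (median 2.08). Fosb rose from 0.707 and 1.32 RPKM to 182 and 167 RPKM (6.46 ± 0.41, limma adjusted p = 0.00018), Fos from 21.7 and 67.6 RPKM to 1023 and 857 RPKM, Jund from 4.58 and 3.61 RPKM to 90.8 and 156 RPKM and Nr4a1, a nuclear receptor also known from patrolling monocytes, from 0.887 and 2.10 RPKM to 55.4 and 36.8 RPKM. Dusp1, a phosphatase that shuts off the stress kinases, rose from 63.7 and 149 RPKM to 1079 and 951 RPKM. Egr1 stood at 2.62 and 23.2 RPKM on day 4 against 33.02 and 23.2 RPKM on day 7, with the days overlapping, and Klf6, lower in both day 7 libraries, at 272 and 361 RPKM on day 4 against 261 and 219.6 RPKM on day 7. After quantile normalization 5 were higher and 1 lower.

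Proteases that cut the matrix exchanged members. Of 21 proteases and inhibitors 6 rose and 4 fell (median -0.01). Mmp12 and Cst3, an inhibitor of cathepsins (from 209 and 215 RPKM to 2435 and 2864 RPKM), rose. Mmp8, the neutrophil collagenase, fell from 2308 and 1118 RPKM to 111 and 112 RPKM, Mmp9, a gelatinase stored in neutrophil granules, from 984 and 546 RPKM to 0.848 and 0 RPKM, and Plaur, the urokinase receptor, from 536 and 384 RPKM to 109 and 93.9 RPKM. Osteoclast genes were mixed in the same way, with 3 of 12 higher, Acp5 (from 3.63 and 1.45 RPKM to 50.6 and 59.1 RPKM), Ctsk (from 2.96 and 2.63 RPKM to 31.3 and 29.8 RPKM) and Atp6v0d2, and 3 lower, Mmp9, Itgb3 and Car2.

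Neutrophil genes led the falls. The 3 neutrophil lists, of primary granules, of secondary and tertiary granules and of mature cells, held 59 tested genes together, of which 4 rose and 44 fell, with a median log2 fold change of -5.32. Without Lyz2, a lysozyme that macrophages also make, they took 15.2% and 11.9% of all RPKM at day 4 and 0.669% and 0.748% at day 7. Of the 59 genes 18 and 24 had no read in day 7 libraries III and IV, against 0 in each day 4 library.

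Primary granule genes are the first that a promyelocyte makes. Of 15 such genes, 9 fell and 3 rose (median -4.93). Mpo had 447 and 641 RPKM on day 4 against 0 and 0 RPKM on day 7, with no read in either day 7 library against 7839 reads at day 4, and was at least 13570.5-fold lower against a floor of 3 reads over both day 7 libraries. Prtn3, proteinase 3, had 108 and 155 RPKM at day 4 and no read at day 7 (at least 1506-fold lower), and Fcnb, ficolin B, 128 and 180.4 RPKM and no read (at least 2025-fold). Elane, neutrophil elastase, fell from 835 and 1119 RPKM to 0.538 and 0 RPKM, its 8 reads at day 7 all in library III. Those that rose were Ctsc, Igfbp4 and Lyz1 (from 219 and 169 RPKM to 834 and 1592 RPKM), and Lyz2 stood at 7104 and 5401 RPKM on day 4 against 7224 and 6272 RPKM on day 7. Lyz1 and Lyz2 are near copies, so reads between them may be split by the counting.

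Secondary and tertiary granule genes, made later by myelocytes and metamyelocytes, fell in most cases. Of 20 genes 15 fell and 0 rose, the median being -7.14. Ngp, a granule protein and the most abundant gene of the table at day 4, fell from 14702 and 11460.1 RPKM to 0.480 and 0.708 RPKM (-13.00 ± 0.93, limma adjusted p = 0.000274), or from 74570 reads to 18. Ltf, lactoferrin, fell from 4411 and 4022 RPKM to 0.429 and 0.333 RPKM (-11.58 ± 0.57, limma adjusted p = 0.000106). Camp, the antimicrobial peptide cathelicidin, fell from 3251 and 2428 RPKM to 1.45 and 0 RPKM, and Lcn2, which binds bacterial siderophores, from 3141 and 2405 RPKM to 5.30 and 0.428 RPKM. Chil3, a chitinase-like protein, fell from 2632 and 3279 RPKM to 0.724 and 1.42 RPKM. Cd177, a surface protein of neutrophils, had a single read at day 7, and its ratio of pooled depth-scaled reads was 73809 (exact 95% interval 13245 to 2915520.0). Pglyrp1, which binds bacterial cell walls, fell from 867 and 583 RPKM to 0.364 and 0.134 RPKM, and Chil1 had 760.4 and 641 RPKM at day 4 and no read at day 7 (at least 10262-fold lower).

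Granule genes of neutrophils are known targets of C/EBP factors, and the 250 bases before their start sites were searched on both strands for the C/EBP pattern TTGCNNAA, which reads differently on its other strand. It was found in 6 of the 17 members of the secondary and tertiary granule list with an entry, in 2 of 13 of the primary granule list, in 4 of 20 of the mature neutrophil list and in 1543 of the 15017 tested genes (10.3%). Ngp (chr9:110419558-110419807, plus strand), Ltf (chr9:111019042-111019291, plus strand) and Camp (chr9:109849457-109849706, minus strand), the 3 largest falls, are shown for their sequences, with matches in capitals. Camp had none.
Ngp: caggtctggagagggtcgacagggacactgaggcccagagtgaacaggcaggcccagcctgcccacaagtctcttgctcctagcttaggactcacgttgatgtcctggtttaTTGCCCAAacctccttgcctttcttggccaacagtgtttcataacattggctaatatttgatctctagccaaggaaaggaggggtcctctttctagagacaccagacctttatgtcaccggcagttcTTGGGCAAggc
Ltf: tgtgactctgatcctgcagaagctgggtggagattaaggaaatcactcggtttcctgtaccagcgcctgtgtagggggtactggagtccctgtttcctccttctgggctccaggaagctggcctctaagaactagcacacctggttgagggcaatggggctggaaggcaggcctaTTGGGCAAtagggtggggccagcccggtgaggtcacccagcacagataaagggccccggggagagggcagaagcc
Camp: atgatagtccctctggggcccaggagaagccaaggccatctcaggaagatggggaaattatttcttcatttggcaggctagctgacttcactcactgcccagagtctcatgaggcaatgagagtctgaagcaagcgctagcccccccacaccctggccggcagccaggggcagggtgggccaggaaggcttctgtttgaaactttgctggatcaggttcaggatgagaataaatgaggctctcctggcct
The matches of Ngp began 138 and 11 bases before the start site and that of Ltf 75 bases before it. Cebpe, the C/EBP factor of granule genes, had 101 and 146 RPKM at day 4 and no read at day 7 (at least 1497-fold lower), whereas Cebpa rose from 3.05 and 6.00 RPKM to 34.3 and 73.2 RPKM and Cebpb rose as given above.

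Genes of mature neutrophils fell as well, 20 of 25, with 1 higher (median -4.91). S100a8 and S100a9, the subunits of calprotectin, fell from 10268 and 7097 RPKM to 42.02 and 41.7 RPKM and from 8465 and 5574 RPKM to 17.9 and 12.7 RPKM, both more than 100-fold. Fpr1, the formyl peptide receptor, fell from 643 and 415 RPKM to 11.5 and 12.5 RPKM, and Retnlg from 1320.3 and 335 RPKM to 0.398 and 4.35 RPKM, its day 4 libraries nearly 4-fold apart. Padi4, which citrullinates histones, had a single read at day 7, and its ratio of pooled depth-scaled reads was 12625 (exact 95% interval 2264 to 498875). Mxd1, a partner of Max, fell from 205 and 143 RPKM to 4.63 and 4.78 RPKM, and the member that rose was Clec4d. Of the 15 largest falls, 3 lay outside these lists, namely Chil1, given above, Il1f9, which encodes IL-36 gamma (from 811 and 1378 RPKM to 1.69 and 0.554 RPKM), and Mcemp1 (from 1016 and 794 RPKM to 4.27 and 0.0807 RPKM). Stefin genes on this list are near copies of each other, and their separate values are not given.

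Of 12 neutrophil transcription factors 3 rose (Cebpa, Cebpb and Lmo2) and 3 fell (Cebpe, Myb and Ets1), with a median of -0.71. Of 23 monocyte genes 3 rose and 8 fell (median -0.70). Ly6c2, the marker of inflammatory monocytes, fell from 1183 and 844 RPKM to 49.5 and 47.2 RPKM, a gene with a near copy in Ly6c1. F13a1, a clotting factor of monocytes, fell from 18.99 and 16.2 RPKM to 2.47 and 1.70 RPKM, and Ifitm6 from 1067 and 592 RPKM to 27.8 and 19.2 RPKM. Cd14 stood at 29.3 and 118 RPKM on day 4 against 384 and 436 RPKM on day 7. Chil3 is on this list too, so the list shares genes with those of neutrophils.

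Genes of basophils, eosinophils and red cells fell, several of them to no read at day 7. In the basophil and mast cell list 7 of 15 fell and 0 rose (median -2.17), and its summed RPKM was 579.9 and 942 on day 4 against 1.62 and 1.32 on day 7. Prss34, a basophil protease, fell from 232 and 439 RPKM to 1.17 and 0 RPKM. Mcpt8, another, had 23.9 and 19.8 RPKM at day 4 and no read at day 7 (at least 203-fold lower), and Hdc, which makes histamine, 252 and 410.1 RPKM and no read (at least 7918-fold). Of 12 eosinophil genes 3 fell and 0 rose (median -1.93), with Prg2, major basic protein, going from 128 and 225 RPKM to 2.66 and 0.109 RPKM. Among 23 erythroid genes 11 fell and 0 rose (median -1.81). Hbb-b1, a beta globin gene with near copies, fell from 1553 and 1682 RPKM to 3.44 and 6.96 RPKM, Car2, a carbonic anhydrase, from 176 and 196 RPKM to 0.415 and 0.969 RPKM, and Alas2, the first enzyme of heme synthesis in red cells, had 64.1 and 76.3 RPKM at day 4 and no read at day 7 (at least 1359-fold lower). Tfrc, the transferrin receptor used by most dividing cells, stood at 19.4 and 28.4 RPKM on day 4 against 22.5 and 19.1 RPKM on day 7.

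Lymphocyte, platelet and stromal lists held a few calls each. In the B lineage list 3 of 18 fell and 1 rose (median -1.42). Cd79a, a chain of the B cell receptor, fell from 19.3 and 11.7 RPKM to 1.82 and 0.619 RPKM, while Blnk, a linker that macrophages also use, rose from 2.03 and 0.839 RPKM to 42.5 and 37.96 RPKM. Of 21 T and NK cell genes 1 fell, Nkg7, and 0 rose (median -1.14). Cd3e and Ncr1, which mark T cells and NK cells, had no read at day 7. Megakaryocyte genes had 2 of 15 lower and 0 higher (median -0.77), and Ppbp, a platelet chemokine, stood at 1.36 and 111 RPKM on day 4 against 50.4 and 41.4 RPKM on day 7, its day 4 libraries over 50-fold apart. In the stromal list 2 of 22 rose, Sparc and Lpl, and 3 fell, among them Col1a1 (from 5.14 and 9.28 RPKM to 0.830 and 1.32 RPKM).

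Progenitor genes moved both ways and mitosis genes fell. In the common and granulocyte-monocyte progenitor list 6 of 20 rose and 7 fell (median -1.01), 6 of its members being growth factor receptors. Kit fell from 8.34 and 18.1 RPKM to 0.0411 and 0.0505 RPKM and Myb from 23.04 and 20.7 RPKM to 0.438 and 0.354 RPKM, while Cd48, an adhesion protein of leukocytes, rose from 16.03 and 12.3 RPKM to 342 and 202 RPKM. Of 22 stem cell genes 2 fell and 0 rose (median -1.07). Ly6a, which encodes Sca-1 and is also induced by interferon, stood at 40.98 and 8.34 RPKM on day 4 against 333 and 355 RPKM on day 7 (limma adjusted p = 0.067).

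Of 26 mitosis genes 20 fell and 0 rose (median -2.45), and the list's summed RPKM was 424 and 663 on day 4 against 99.9 and 91.1 on day 7. Ccna2 and Ccnb1, cyclins of the late cell cycle, fell from 21.6 and 38.3 RPKM to 3.39 and 2.34 RPKM and from 29.7 and 61.1 RPKM to 5.80 and 6.82 RPKM. Nusap1 and Kif20a, of the spindle, fell from 13.1 and 24.2 RPKM to 0.669 and 1.11 RPKM and from 10.2 and 9.11 RPKM to 0.0945 and 0.139 RPKM, and Top2a, the topoisomerase of dividing cells, from 20.6 and 48.2 RPKM to 6.41 and 3.93 RPKM. The CHR element of mitotic promoters, TTTGAA on either strand, was found within 250 bases before the start site of 8 of 22 members with a RefSeq promoter and of 2340 of 15017 tested genes (15.6%). Without day 0 in the fit 21 of the list were lower, and 10 after thinning as well, while quantile normalization gave 4. Of 26 S phase genes 7 fell and 1 rose (median -1.29). Rrm2, which makes deoxynucleotides, fell from 48.4 and 117 RPKM to 5.71 and 4.44 RPKM and Uhrf1, which keeps DNA methylation through replication, from 14.7 and 17.2 RPKM to 3.28 and 4.16 RPKM. Pcna, the sliding clamp of replication and repair, rose from 44.2 and 82.4 RPKM to 603 and 462 RPKM (3.11 ± 0.46, limma adjusted p = 0.00462), in contrast to the 7 that fell. The S phase falls numbered 10 without day 0 in the fit, 1 after thinning as well and 2 after quantile normalization.

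Genes of protein synthesis and respiration were higher. Of 40 ribosomal protein genes 19 rose and 0 fell (median 2.40), and the list's share of RPKM was 1.41% and 1.90% on day 4 against 5.85% and 6.19% on day 7. Rplp1 and Rplp2, the stalk proteins, rose from 48.5 and 80.97 RPKM to 2401 and 2974 RPKM and from 58.1 and 67.1 RPKM to 1569 and 1689.8 RPKM, and Rpl10a from 35.4 and 38.8 RPKM to 375 and 439.6 RPKM. Rpl9 stood at 669.6 and 591 RPKM on day 4 against 1227 and 1401 RPKM on day 7 and Rpl13 at 412 and 515 RPKM on day 4 against 1739.7 and 2016 RPKM on day 7, higher in both day 7 libraries without passing the test. The count was 36 without day 0 in the fit, 32 after thinning as well and 8 after quantile normalization. Ribosomal protein genes have many processed pseudogenes, so that the counting of shared reads can shift a level. Of 27 oxidative phosphorylation genes 8 rose and 0 fell (median 1.43). The higher calls of oxidative phosphorylation numbered 18 without day 0 in the fit, 15 after thinning as well and 2 after quantile normalization. Ndufa4 rose from 69.95 and 58.6 RPKM to 539 and 613 RPKM, Cox6c from 37.9 and 33.5 RPKM to 362 and 305 RPKM and Ndufs3, of complex I, from 17.1 and 14.6 RPKM to 109.9 and 121 RPKM, while Atp5b, the catalytic subunit of ATP synthase, stood at 208 and 328 RPKM on day 4 against 220.2 and 244 RPKM on day 7.

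Glycolysis genes were called in both directions. Of 19 genes 1 rose and 4 fell (median -0.67). Slc2a3, the glucose transporter GLUT3, fell from 293 and 279.7 RPKM to 0.916 and 3.52 RPKM (-6.61 ± 0.46, limma adjusted p = 0.000257), Eno1, enolase, from 86.4 and 138 RPKM to 4.31 and 2.64 RPKM and Slc16a3, which exports lactate, from 112 and 73.7 RPKM to 14.8 and 17.8 RPKM. Eno1 has processed copies, which makes its level uncertain. Gapdh stood at 462 and 686 RPKM on day 4 against 137 and 125 RPKM on day 7 and Pkm, pyruvate kinase, at 1203 and 2066 RPKM on day 4 against 439 and 469.8 RPKM on day 7, both lower in the day 7 libraries (limma adjusted p = 0.216 and 0.0975). Ldha was level at 406 and 379.9 RPKM on day 4 against 393 and 442 RPKM on day 7.

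Among 25 genes of the phagocyte oxidase and of oxidative stress 3 rose and 3 fell (median -0.01). Among genes that reached a mean of 5 RPKM 15.3% were higher and 14.0% lower. Sod1, the cytosolic superoxide dismutase, rose from 37.3 and 61.7 RPKM to 439 and 487 RPKM and Gpx3, a secreted peroxidase, from 17.3 and 19.9 RPKM to 166 and 167 RPKM, whereas Slc7a11, which imports cystine, fell from 149 and 433 RPKM to 7.73 and 7.66 RPKM. Prdx1, a peroxiredoxin, stood at 462 and 1278 RPKM on day 4 against 4943 and 6059 RPKM on day 7, with limma adjusted p = 0.0504 just over the threshold. Of 15 targets of p53 2 rose and 2 fell (median -0.07). Cdkn1a, the cell cycle inhibitor p21, rose from 15.7 and 19.9 RPKM to 167 and 171 RPKM, and Trp53inp1 fell from 138 and 172 RPKM to 11.7 and 4.63 RPKM. Mdm2 and Bax stood at 65.1 and 153 RPKM on day 4 against 80.5 and 57.1 RPKM on day 7 and at 88.4 and 179 RPKM on day 4 against 254 and 265 RPKM on day 7.

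**Figure D4:**
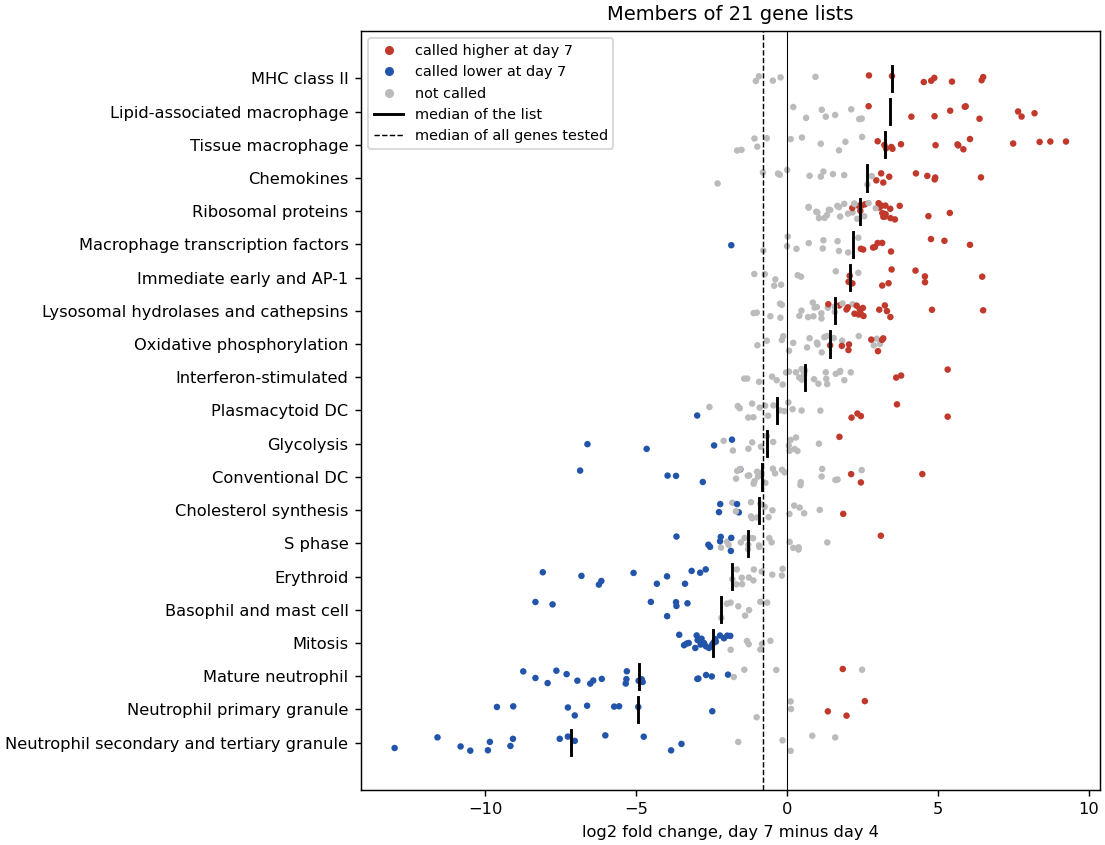
Log2 fold change (day 7 minus day 4) of the tested members of 21 gene lists, in red called higher, in blue called lower and in grey not called, with a bar at each list's median and a dashed line at the median of all genes, -0.81. The macrophage, MHC class II, chemokine and ribosomal lists lie to the right, the neutrophil, mitosis, basophil and erythroid lists to the left, and the DC lists around the dashed line.

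Quantile normalization changed the calls of further lists by over 1.5 times, and those that changed by 2 or more genes are given here. Higher calls went from 11 to 7 in the scavenger receptor list, from 5 to 3 in the Fc receptor list, from 5 to 3 in the plasmacytoid DC list, from 3 to 1 in the conventional DC list, from 3 to 0 in the primary granule list, from 3 to 1 in the neutrophil transcription factor list and from 4 to 2 in the cytokine list. Lower calls went from 5 to 2 in the conventional DC list, from 2 to 0 in the DC maturation list, from 7 to 3 in the basophil list, from 3 to 0 in the B lineage list, from 2 to 0 in the megakaryocyte list, from 2 to 0 in the stem cell list, from 3 to 1 in the stromal list and from 3 to 5 in the oxidative stress list.

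The most abundant genes were in part the same on both days. Of the 15 highest at day 4 and the 15 highest at day 7, Ftl1, Fth1, Lyz2, Ubb and Ctsd were in both sets, and none of these 5 was called. The day 4 set was filled by neutrophil genes that fell (Ngp, S100a8, S100a9, Ltf, Lcn2, Chil3 and Camp), by globin genes that fell, and by H2-D1. The day 7 set was filled by Apoe, Ctss, Cst3 and Rplp1, which rose, and by Tmsb4x, Prdx1, Tyrobp, Fcer1g, Lgals3 and Itm2b, which did not pass the test. Tmsb4x, which binds actin monomers, stood at 1847 and 1315 RPKM on day 4 against 5954 and 5624 RPKM on day 7, and Lgals3, a galectin, at 912 and 1298 RPKM on day 4 against 2666 and 2634 RPKM on day 7, both higher in the day 7 libraries.

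**Figure D5:**
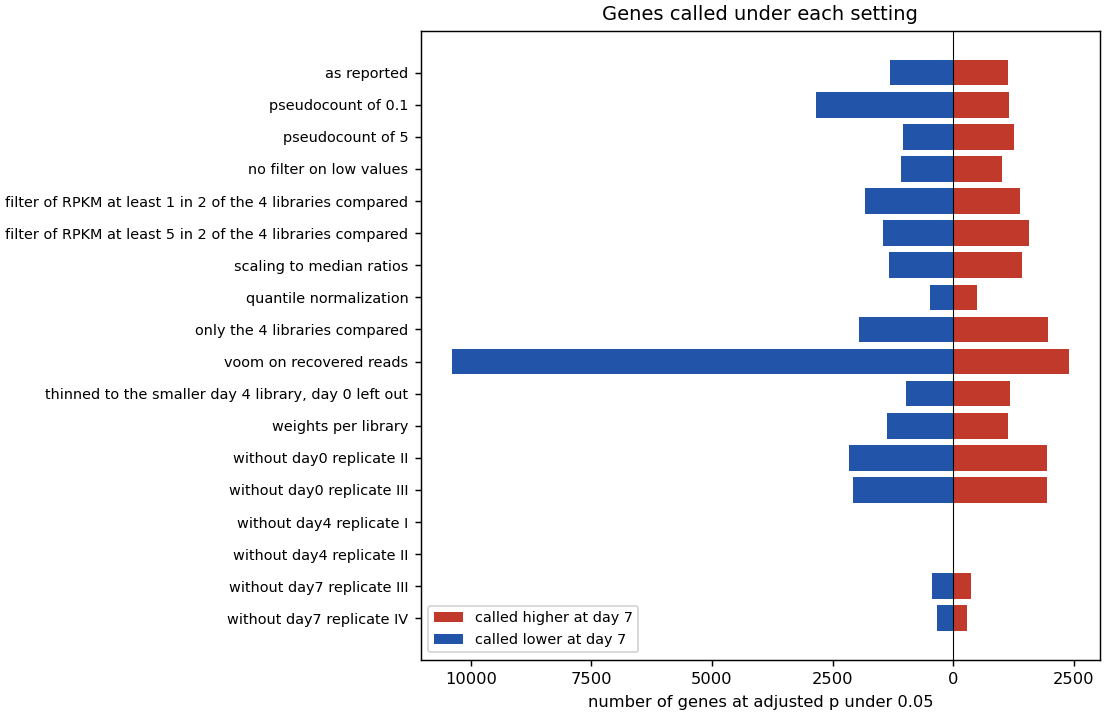
Number of genes called lower (blue, to the left of 0) and higher (red, to the right) at day 7 under the reported fit and each of 17 alternatives. The count of lower genes spans 0 without either day 4 library to 10392 with voom on reads recovered from the table, and the count of higher genes spans 0 to 2396.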

How the data were processed

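RNA extraction used a Qiagen RNeasy kit and library preparation the SMARTer Ultra Low Input and NexteraXT kits, per the labels' protocols. The authors deposited RPKM per gene with exon lengths, per the file headers. TopHat2 2.0.13, SAMtools 1.1 and the build mm9 are named without roles in the submitters' processing notes. The sources used here name no read counter, annotation or strand setting, so reads of overlapping antisense genes cannot be separated.

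Every value was a whole multiple of 1 read to within 5.41e-05 reads, so reads and library totals were recovered, and floors and intervals cover counting error only, since PCR copies are not independent molecules. Genes with at least 1 RPKM in at least 2 of the 6 libraries were fitted as log2(RPKM + 1) with limma 3.58.1 in R 4.3.3 (3 group means, eBayes with trend, 3 residual and a median of 5.22 prior degrees of freedom). The two-sided p-values were adjusted by Benjamini-Hochberg over all 19279 genes, and the script was tested on simulated data. The comparison, its 46 gene lists (988 of 996 entries found) and the naming rule were chosen with earlier results of these data known. The rule took the 15 largest called rises and falls whose mean reached 5 RPKM and whose days did not overlap, the 15 most abundant genes of each day, up to 5 most abundant and 3 of smallest adjusted p per list, and the markers. Predicted genes, clone names, small RNAs, gene segments and entries with no symbol were skipped. Ctsc, Igfbp4, Clec10a, Ly6c1 and H2-DMb1, outside the rule, and the promoters shown were chosen after their values or sequences were seen. Lists got no test. Some genes of the lists are not reported here by name. Alternatives were other pseudocounts, filters and scalings, voom, thinning, library weights and leaving out libraries. Promoters are RefSeq's of GRCm38.p6, and no other coordinates are given because the authors' build differs. H2-Ab1 and C1qa had no promoter entry. Plots used matplotlib 3.10.9 in Python 3.11.15.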

Additional observations from a re-analysis of the deposited data

How the results depend on the processing

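Day 4 depth and the 2 libraries a day limit the counts. As reported 1127 genes were higher and 1301 lower at day 7, with 46.4% of the calls higher. With only the 4 libraries compared in the fit they were 1963 higher and 1958 lower. Quantile normalization gave 495 and 483, of which 438 and 459 were called as reported, and voom on recovered reads gave 2396 and 10392, or 18.7% higher. With a pseudocount of 0.1 the lower genes numbered 2846 and 28.8% of calls were higher. Leaving out 1 library at a time, a day left with a lone library being assumed to vary like the others, gave 0 to 1952 higher and 0 to 2168 lower genes. The 0 counts came without day 4 library I or II (4062 and 7160 genes at unadjusted p under 0.05), and the highest without day 0 library II. Thinning to 1365635 reads was fitted without day 0 and gave 1179 and 982, fewer than the 4 libraries at full depth. Pseudocount 5, the other filters, median ratios and library weights kept both counts within 1.5 times. In every called gene the days lay apart, so only scaling to median ratios, quantile normalization, voom and thinning could reverse a direction. Of 193 called genes named by the rule none changed direction under the 17 alternatives, except that the filter of 5 RPKM left 187 to fit. Of these genes 60 lost their call under quantile normalization, 31 under thinning without day 0, 63 without day 7 library III, 69 without IV and 193 without either day 4 library. Depth sets how low a day 4 value can be read: under 2.20 RPKM in library I a 1 kb gene had fewer than 3 reads. No paired analysis was possible because the libraries of day 4 and day 7 share no replicate number.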
